A study of Mus musculus with 9 samples.

Results

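Transcription factors of excitatory projection neurons were followed through the ribosome-associated RNA of hippocampal PV INs. The 9 genes were Tbr1, Bcl11a, Bcl11b, Fezf2, Sox5, Neurod1, Neurod2, Neurod6 and Zbtb18, taken by name from the 37620 genes counted, and all 9 passed the filter on low counts. They were read together to see whether Tbr1 and Bcl11a moved alone or with other factors of excitatory neurons. PV-Cre:Rpl22HA mice, in which the Pvalb-driven Cre puts an HA tag on the ribosomal protein L22 of PV INs, received a lentivirus in the DG at 2 months of age. It carried either a non-target shRNA (shNT, 5 samples) or a shRNA against Ablim3 (shRNA, 4 samples). Ablim3 was described by the study as a brake on the contacts of mossy fibre filopodia with PV INs. After 2 weeks CA3/CA2 tissue of 6 mice, 3 males and 3 females, was pooled into each sample and HA-tagged ribosomes were immunoprecipitated. All mice of both groups carried the Cre, the tagged Rpl22 and a GFP-expressing virus, and no untagged or input RNA was analysed here. The knockdown was in DG cells while the sequenced RNA came from CA3/CA2 ribosomes, so the level of Ablim3 here (16.9 ± 5.16 CPM in shNT, SD, n = 5, and 18.5 ± 3.42 CPM in shRNA, SD, n = 4) does not check it.

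Projection neurons are the glutamatergic cells that carry signals out of a region, and in the forebrain they arise from dorsal progenitors. TBR1, FEZF2, BCL11B (CTIP2), SOX5 and BCL11A (CTIP1) act in a network that sets which deep-layer identity a newborn cortical neuron takes. The bHLH proteins NEUROD1, NEUROD2 and NEUROD6 drive differentiation and maturation of glutamatergic neurons, and ZBTB18 (RP58) represses earlier programmes in the same lineage. PV INs come from the ventral medial ganglionic eminence instead and use LHX6, SOX6, SATB1 and DLX factors.

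Gene counts ran from 18281719 to 34578837 per sample, and the members had between 45 reads (Tbr1, shNT replicate 4) and 4425 reads (Zbtb18). Defining markers of PV INs were present throughout. Pvalb stood at 997 ± 287 CPM (SD, n = 5) in shNT and all 15 PV IN markers were detected in every group, as were markers of glutamatergic neurons, astrocytes and oligodendrocytes. Libraries differed in quality measures. In shRNA replicate 4, 27.2% of uniquely aligned reads lay outside exons, the summed astrocyte markers reached 5914 CPM and the summed PV IN markers were the lowest of all samples at 5967 CPM. In shNT replicate 2, 18.6% of reads lay outside exons, against 9.76% to 11.3% in the other shNT samples. The share was 19.8% in shRNA replicate 1 and 12.4% and 12.5% in shRNA replicates 3 and 2. Values of the 9 factors are therefore also given without shNT replicate 2 and shRNA replicate 4, and their calls without all 3 libraries above 15%.

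All 9 factors had a higher mean in shRNA than in shNT. Tbr1, Bcl11a, Fezf2 and Neurod1 passed the test and rose, by 1.76-fold to 2.35-fold. Bcl11b, Neurod6 and Zbtb18 were above the fold minimum of 1.5 with an FDR between 0.05 and 0.1 (an FDR under 0.1 with at least this fold was reached by 13.4% of all genes and by 7 of the 9), and Sox5 and Neurod2 had smaller differences with an FDR above 0.1. Of the 15069 genes tested, 2.59% were called higher and 0.0398% lower (FDR under 0.05 and at least 1.5-fold in edgeR's quasi-likelihood test), beside 4 and 0 of the 9 members. A positive log2 fold change was found in 57.9% of all genes and in 9 of 9 members, and the median log2 fold change was 0.11 over all genes and 0.83 over the members. For 6 members the lowest shRNA sample was above the highest shNT sample, a separation seen in 8.97% of all genes. Without shNT replicate 2 and shRNA replicate 4 again 4 members were called higher (Tbr1, Bcl11a, Neurod1 and Neurod6), beside 4.99% of the genes tested. With shRNA replicate 1 also left out, which leaves 4 shNT and 2 shRNA samples, 0 members and 0 of 13983 genes were called in edgeR's quasi-likelihood test (1890 were higher at an unadjusted p under 0.05). All 9 members were still positive there, with Tbr1 at 1.23 (FDR = 0.162) and Bcl11a at 0.72 (FDR = 0.149). No member was called when shNT replicate 3, 4 or 5 or shRNA replicate 1, 3 or 4 was left out alone, and all 9 kept a positive value in each of those fits. Over all genes 181 (1.25%) were called higher without shRNA replicate 4 and 0 in each of the other fits just named, where 1810 to 3083 were higher at an unadjusted p under 0.05. In bulk RNA of this kind, more cells or fragments of a type and more RNA per cell cannot be told apart. Tbr1 and Bcl11a were genes that the study itself took forward from this experiment, so their calls here are not independent of that choice. The study also reported a rise of both by qRT-PCR in CA3/CA2 PV INs after the same knockdown, which was not analysed here.

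**Figure D1:**
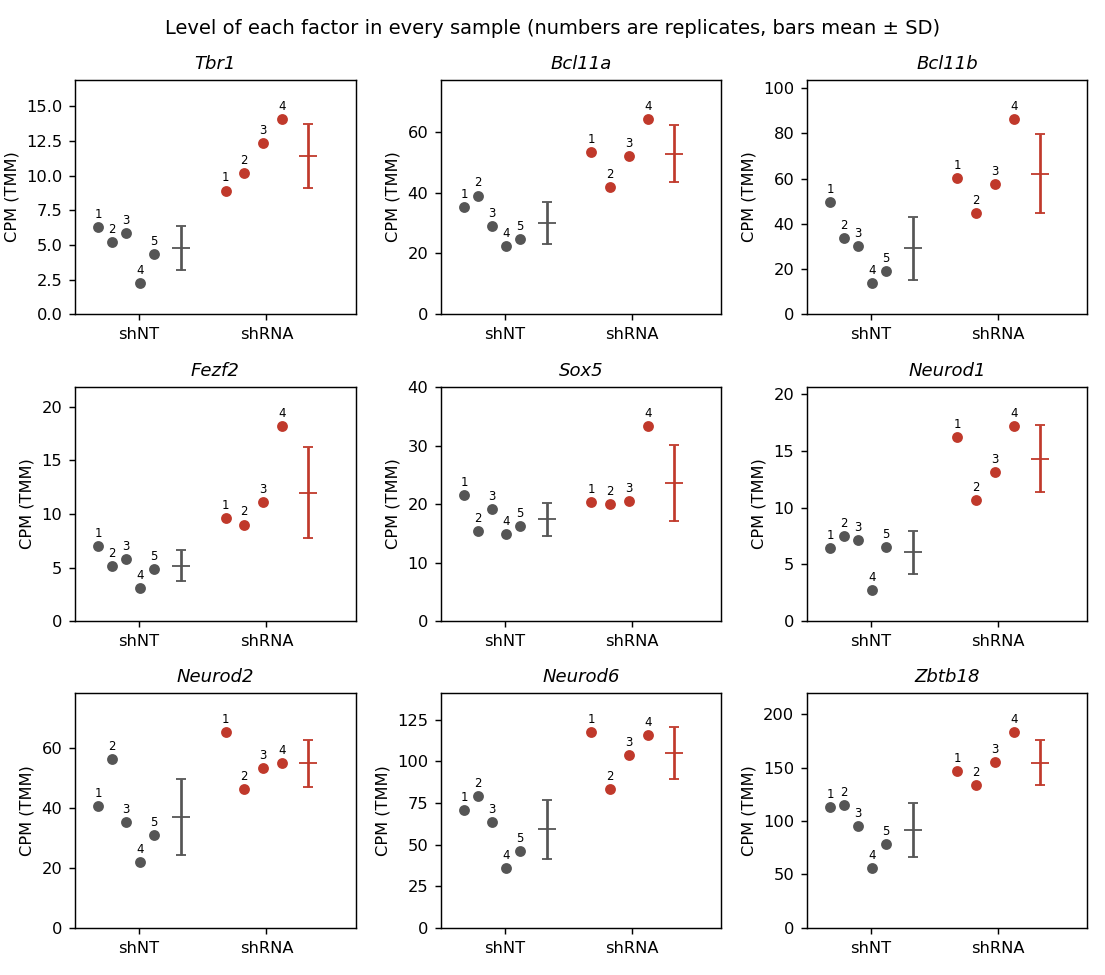
TMM-normalized CPM (y axis) of the 9 factors in each of the 5 shNT and 4 shRNA samples (points, numbered by replicate), with the mean and SD of each group beside them. Tbr1, Bcl11a, Fezf2, Neurod1, Neurod6 and Zbtb18 have no overlap between groups, and shNT replicate 4 is the lowest sample of its group in all 9 panels.

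Tbr1 encodes a T-box factor of early-born deep-layer neurons and lies on chromosome 2 from 61640987 to 61652171, plus strand (mm9, ENSMUSG00000035033). In order of replicate number, the shNT samples had 6.32, 5.23, 5.86, 2.27 and 4.33 CPM of Tbr1 and the shRNA samples 8.93, 10.2, 12.4 and 14.1 CPM. The lowest shRNA sample was above the highest shNT sample, and the lowest value of all was that of shNT replicate 4. It averaged 4.80 ± 1.60 CPM over shNT (SD, n = 5) and 11.4 ± 2.30 CPM over shRNA (SD, n = 4), which is 1.23 on the log2 scale (SE 0.27, FDR = 0.0424 in edgeR's quasi-likelihood test, Benjamini-Hochberg adjusted). An exact two-sided permutation test gave p = 0.00794, the smallest that 5 against 4 samples allow. With shNT replicate 2 and shRNA replicate 4 both left out, its log2 fold change was 1.16 (FDR = 0.0497 in edgeR's quasi-likelihood test). Tbr1 lost its call in 6 of the 9 fits that left out 1 sample each. These were the fits without shNT replicate 3 (1.25), 4 (1.06) or 5 (1.10) and without shRNA replicate 1 (1.26), 3 (1.19) or 4 (1.10), and the highest FDR among them was 0.161.

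Bcl11a, a zinc-finger repressor that joins the BAF chromatin complex, lies on chromosome 11 from 23978056 to 24074123, plus strand (ENSMUSG00000000861). It stood at 35.2, 39.0, 28.9, 22.6 and 24.7 CPM in the shNT samples and at 53.3, 41.7, 52.1 and 64.2 CPM in the shRNA samples. The groups did not overlap, although shNT replicate 2 and shRNA replicate 2 were close. It averaged 30.1 ± 6.95 CPM in shNT (SD, n = 5) and 52.8 ± 9.21 CPM in shRNA (SD, n = 4). Its log2 fold change was 0.81 (SE 0.19, FDR = 0.0478 in edgeR's quasi-likelihood test), and the exact two-sided permutation p was 0.0159. The call sat at the threshold: the version 3 form of the same edgeR test gave an FDR of 0.0504, which is not a call, and the same 6 fits lost it as for Tbr1 (log2 fold change 0.65 to 0.82). Without shNT replicate 2 and shRNA replicate 4 the value was 0.83 (FDR = 0.0265 in edgeR's quasi-likelihood test). Of its exon bases, 2.398% are shared with 4930538E20Rik on the other strand, and the counting did not use strand.

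Fezf2, a zinc-finger factor required for subcerebral projection neurons, lies on chromosome 14 from 13174406 to 13178379, minus strand (ENSMUSG00000021743). It had 7.03, 5.14, 5.79, 3.07 and 4.83 CPM in shNT and 9.63, 9.02, 11.1 and 18.3 CPM in shRNA. Replicate 4 was the lowest of the shNT samples and the highest of the shRNA samples, and the groups did not overlap. Its log2 fold change was 1.20 (SE 0.27, FDR = 0.0464 in edgeR's quasi-likelihood test), with an exact permutation p of 0.00794. Without shNT replicate 2 and shRNA replicate 4 it was 0.94 and missed the threshold (FDR = 0.0536 in edgeR's quasi-likelihood test). Its call was lost in the 6 fits named for Tbr1 and also without shNT replicate 2 alone (1.20, FDR = 0.0568), over a range of 0.91 to 1.23.

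Bcl11b, the paralog of Bcl11a that FEZF2 acts through in subcerebral neurons, lies on chromosome 12 from 109148613 to 109241812, minus strand (ENSMUSG00000048251). It had 49.5, 33.9, 30.1, 13.7 and 18.9 CPM in shNT and 60.1, 44.6, 57.6 and 86.4 CPM in shRNA. The groups overlapped in 1 sample, since shRNA replicate 2 lay under shNT replicate 1. The log2 fold change was 1.09, but its SE of 0.33 was the widest of the 9 and it did not pass (FDR = 0.0639 in edgeR's quasi-likelihood test). It was 0.96 without shNT replicate 2 and shRNA replicate 4 (FDR = 0.127), 0.72 with an offset for gene length and 0.65 with one for exon length. The exact permutation p was 0.0238. Among the fits that left out 1 sample, it passed in the one without shNT replicate 1 (1.36, FDR = 0.0344).

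Sox5, an SRY-box factor that times the birth of deep-layer neurons, spans chromosome 6 from 143776945 to 144730497, minus strand (ENSMUSG00000041540), and is by far the longest of these genes at 953.6 kb. Its level was 21.5, 15.4, 19.2, 14.8 and 16.2 CPM in shNT and 20.4, 20.03, 20.6 and 33.4 CPM in shRNA. Only shRNA replicate 4 was above all shNT samples. The log2 fold change was 0.44 (SE 0.19, FDR = 0.137 in edgeR's quasi-likelihood test), and it was 0.19 with shNT replicate 2 and shRNA replicate 4 left out.

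Among the NEUROD factors, Neurod1 (chromosome 2 from 79292678 to 79296908, minus strand, ENSMUSG00000034701) also marks young DG granule cells. It had 6.40, 7.48, 7.13, 2.77 and 6.55 CPM in shNT and 16.2, 10.7, 13.1 and 17.2 CPM in shRNA. All shRNA samples were above all shNT samples, and shNT replicate 4 was far below the rest of its group. The log2 fold change was 1.23 (SE 0.26, FDR = 0.0402 in edgeR's quasi-likelihood test), and 1.22 without shNT replicate 2 and shRNA replicate 4. The 6 fits named for Tbr1 lost this call too, at 1.05 to 1.26. Of its exon bases, 13.01% are shared with Cerkl and Gm17325, where the counting can set reads aside as ambiguous instead of giving them to Neurod1.

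Neurod2 (chromosome 11 from 98186729 to 98190962, minus strand, ENSMUSG00000038255) is kept on in mature glutamatergic neurons. It had 40.5, 56.3, 35.2, 21.8 and 30.9 CPM in shNT and 65.1, 46.2, 53.4 and 55.0 CPM in shRNA. A single shNT sample, replicate 2, reached into the shRNA range and above 3 of its 4 samples. Its log2 fold change of 0.57 (SE 0.23) did not pass (FDR = 0.110 in edgeR's quasi-likelihood test), and was 0.78 (FDR = 0.0514) without shNT replicate 2 and shRNA replicate 4.

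Neurod6 (chromosome 6 from 55627812 to 55631257, minus strand, ENSMUSG00000037984) is the NEUROD factor most used as a marker of forebrain pyramidal neurons. It had 70.7, 78.9, 63.3, 36.1 and 46.3 CPM in shNT and 117, 83.5, 104 and 116 CPM in shRNA. The groups did not overlap, with a small gap between shNT replicate 2 and shRNA replicate 2. Its log2 fold change of 0.83 (SE 0.22) missed the threshold with all samples (FDR = 0.0575) and passed it without shNT replicate 2 and shRNA replicate 4 (0.92, FDR = 0.0390 in edgeR's quasi-likelihood test). It also passed without shNT replicate 1 (0.90), shNT replicate 2 (0.96) or shRNA replicate 2 (0.93) alone.

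Zbtb18 (listed as Zfp238 in the annotation, chromosome 1 from 179374792 to 179380891, plus strand, ENSMUSG00000063659) had the highest counts of the 9. Its level was 113, 115, 95.8, 55.7 and 78.8 CPM in shNT and 147, 133, 155 and 183 CPM in shRNA. The groups were apart, and its log2 fold change was 0.75 (SE 0.20, FDR = 0.0586 in edgeR's quasi-likelihood test). Without shNT replicate 2 and shRNA replicate 4 it was 0.77 (FDR = 0.0572), and the exact permutation p with all samples was 0.0238. Among the fits that left out 1 sample, Zbtb18 passed in the one without shNT replicate 1 (0.84, FDR = 0.0431).

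Per kilobase of exon the factors were low beside markers of the tagged cells. Mean levels in shNT were 27.4 ± 8.17 CPM per kb for Neurod6, 18.0 ± 4.90 for Zbtb18 and 11.8 ± 4.07 for Neurod2 (SD, n = 5). Bcl11b followed at 3.60 ± 1.72, then Bcl11a at 2.28 ± 0.527, Fezf2 at 2.25 ± 0.628 and Neurod1 at 2.22 ± 0.693 CPM per kb. The SDs take no account of genes sharing their samples, and the order of genes was not tested. Over all exons Sox5 (1.21 ± 0.197) and Tbr1 (0.875 ± 0.292) were the lowest. Gad1, the GABA-synthesizing enzyme, stood at 396 CPM per kb and Slc17a7, the glutamate transporter VGLUT1 of excitatory neurons, at 87.8 in the same samples. In shRNA the levels were 48.8 ± 7.26 for Neurod6, 30.3 ± 4.09 for Zbtb18, 17.5 ± 2.49 for Neurod2, 7.67 ± 2.16 for Bcl11b and 5.24 ± 1.09 CPM per kb for Neurod1 (SD, n = 4). Fezf2 was then at 5.21 ± 1.85, Bcl11a at 4.01 ± 0.699, Tbr1 at 2.08 ± 0.419 and Sox5 at 1.64 ± 0.456 CPM per kb, so Tbr1 had the larger mean of the last pair. Within samples and without length, the log2 ratio of Tbr1 to Sox5 was -2.67 to -1.54 in shNT and -1.24 to -0.731 in shRNA. Over the longest transcript in place of all exons, Bcl11a came to 5.02, Sox5 to 2.40 and Tbr1 to 1.21 CPM per kb in shNT, which puts Bcl11a above Bcl11b and Sox5 above Fezf2 (2.25) and Neurod1 (2.22).

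To ask whether Tbr1 or Bcl11a moved by a different amount than the other factors, their log2 ratio to each was formed within every sample. The smallest shifts of Tbr1 were against Neurod1 and Fezf2. The ratio to Neurod1 differed by 0.01 (95% interval -0.567 to 0.473) and that to Fezf2 by 0.10 (-0.239 to 0.451). Against Sox5 the log2 ratio of Tbr1 was higher in shRNA by 0.88 (0.378 to 1.48, exact two-sided permutation p = 0.00794, adjusted p = 0.151 over the 19 ratios). Against Zbtb18 it was higher by 0.50 (0.143 to 0.873, exact p = 0.0238) and against Slc17a7 by 0.49 (0.136 to 0.916, exact p = 0.0159), both with an adjusted p of 0.151. None of the 19 ratios passed after adjustment. The smallest p that 5 against 4 samples allow is 0.00794. A lone ratio at that p adjusts to 0.151 over the 19, so the adjusted test left little room to pass. The ratio of Tbr1 to Bcl11a shifted by 0.47 (-0.0701 to 1.09, exact p = 0.0714).

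The log2 ratios of Bcl11a to the abundant pyramidal factors differed little between groups. Its log2 ratio to Neurod6 differed by -0.05 (95% interval -0.290 to 0.15), that to Zbtb18 by 0.03 (-0.197 to 0.223) and that to Slc17a7 by 0.02 (-0.544 to 0.576). The interval to Slc17a7 was the widest of these. These ratios take no account of length, and with an exon length offset in the fit Bcl11a was at 0.17, Zbtb18 at 0.45 and Neurod6 at 0.82, a difference that was not tested. The ratios of Bcl11a to Neurod1 (-0.46), Fezf2 (-0.37) and Bcl11b (-0.36) were lower in shRNA, and that to Sox5 (0.41) higher, each with an exact permutation p above 0.05.

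**Figure D2:**
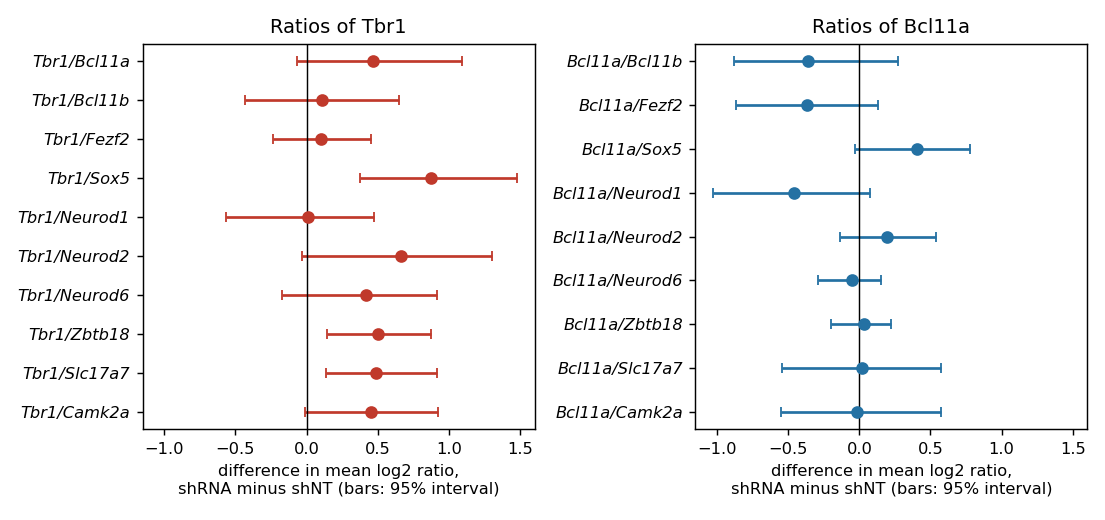
Difference between groups in the mean log2 ratio of Tbr1 (left) and of Bcl11a (right) to each other factor and to Slc17a7 and Camk2a (x axis, shRNA minus shNT), with 95% intervals from the exact permutation test. Intervals of Tbr1 to Sox5, Zbtb18 and Slc17a7 lie above 0, and all 9 intervals of Bcl11a include 0.

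Within the groups the factors also varied together from sample to sample. As deviations from the group mean over the 9 samples, Pearson r among members ran from 0.16 (Sox5 and Neurod2) to 0.95 (Neurod6 and Zbtb18), with 0.92 for Tbr1 and Zbtb18, 0.89 for Tbr1 and Fezf2, 0.93 for Bcl11a and Neurod6 and 0.71 for Tbr1 and Bcl11a. Slc17a7, which is not a member, shared in this, with r from 0.27 (Sox5) to 0.84 (Tbr1) across the factors. For Pvalb r ran from -0.90 (Sox5) to -0.08 (Neurod2). These points share their libraries and normalization, and each r is a description of 9 values. shNT replicate 4 was the lowest shNT sample for 9 of 9 members, shRNA replicate 2 the lowest shRNA sample for 8 and shRNA replicate 4 the highest for 7. The 5 genes whose deviations were most like those of Tbr1, among 10936 genes of at least 5 CPM, were Atxn1l (r = 0.985), Igsf21 (0.978), Vxn (0.973), Hpcal4 (0.972) and Mmd (0.968). For Bcl11a they were Spata13 (r = 0.988), Nbl1 (0.984), Bach2 (0.981), Rhou (0.977) and Rfx3 (0.976).

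Sequences just upstream of the transcription starts were searched for letters known to bind these families, because the members moved in the same direction. RefSeq windows of 250 bases before each start (from its GRCm38.p6 table) were found for all 9 genes. Each had 1 exact match on its own chromosome and strand in mm9, the only place searched. The starts used for Bcl11a and Sox5 lie 2639 and 834871 bases downstream of the gene starts given above. The motifs were CAGATG and CAGCTG (E-boxes of NEUROD factors), AGGTGT (the T-box core) and TGACCA (bound by BCL11A), on both strands, none overlapping another where found. Capitals mark them below. Tbr1 is shown only over the 30 bases around its TGACCA match (chr2:61642332-61642361, plus strand), since its window lies within exons of longer annotated transcripts. Bcl11a (chr11:23980445-23980694, plus strand) and Fezf2 (chr14:13178380-13178629, minus strand) are shown as called members, and Neurod6 (chr6:55631258-55631507, minus strand) and Zbtb18 (chr1:179374542-179374791, plus strand, 1 of its 5 windows) as members with a match.
Tbr1: ttcctgaagcagTGGTCAcaaagcttaaag
Bcl11a: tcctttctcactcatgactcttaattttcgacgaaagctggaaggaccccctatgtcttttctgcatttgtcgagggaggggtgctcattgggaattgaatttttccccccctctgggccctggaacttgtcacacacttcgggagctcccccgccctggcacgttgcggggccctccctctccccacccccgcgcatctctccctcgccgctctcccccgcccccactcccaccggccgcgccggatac
Fezf2: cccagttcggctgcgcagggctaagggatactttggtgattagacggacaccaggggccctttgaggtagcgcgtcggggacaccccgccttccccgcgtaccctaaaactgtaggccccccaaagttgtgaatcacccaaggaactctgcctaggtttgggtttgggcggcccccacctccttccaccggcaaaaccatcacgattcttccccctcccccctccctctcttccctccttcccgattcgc
Neurod6: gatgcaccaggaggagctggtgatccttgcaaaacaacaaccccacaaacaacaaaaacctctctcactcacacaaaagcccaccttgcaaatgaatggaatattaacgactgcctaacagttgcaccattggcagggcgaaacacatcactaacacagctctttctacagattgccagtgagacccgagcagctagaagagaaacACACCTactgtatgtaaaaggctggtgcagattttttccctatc
Zbtb18: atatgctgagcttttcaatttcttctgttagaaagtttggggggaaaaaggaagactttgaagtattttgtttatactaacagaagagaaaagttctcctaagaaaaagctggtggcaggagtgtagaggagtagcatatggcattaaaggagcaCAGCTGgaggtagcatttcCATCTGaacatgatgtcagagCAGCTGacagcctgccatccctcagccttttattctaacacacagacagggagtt
CAGATG was present for 2 members, Neurod2 and Zbtb18, and in 14.4% of all 32851 RefSeq windows of that length. A member counts if any of its windows holds the letters, and Zbtb18 has 5 windows. The shares are per window, so they are not on the same basis as the member counts. CAGCTG was found for Zbtb18 (13% of all windows), AGGTGT for Neurod6 (11.8%) and TGACCA for Tbr1 (11.4%). Bcl11a and Fezf2 held none of these letters in this window. The GC content was 45.2% for the window of Tbr1, 62% for Bcl11a, 61.2% for Fezf2 and 67.6% for Neurod1, beside a median of 52.4% over all windows.

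The wider set of excitatory-neuron transcription factors had mostly positive values too, with a smaller median. Of 34 listed genes 29 were tested, 1 was called higher and 0 lower, 26 had a positive log2 fold change, 10 had groups that did not overlap and the median was 0.59. Over all genes 2.59% were called higher, 57.9% were positive, 8.97% had every shRNA sample above every shNT sample and the median was 0.11. Rorb (1.89, FDR = 0.0575), Otx1 (1.67) and Pou3f2 (1.30), named after their values were seen, had larger values than any of the 9 members and were not called, and each was highest in shRNA replicate 4. Rorb was at 67.8 CPM in that library (other shRNA samples 11.7 to 14.6). Also named after their values were seen, Nfia was at 116 CPM there (29.7 to 40.7), Emx2 at 13.1 (4.30 to 6.80) and Mef2c, the lowest of its group, at 300 (478 to 701). The same library had the highest astrocyte sum (5914 CPM), whose part in these values was not tested. The called gene was Prox1, which keeps DG granule cells in their identity (0.96, FDR = 0.0464 in edgeR's quasi-likelihood test), and the next lowest p was that of Nr4a2, an orphan nuclear receptor of claustrum and deep-layer neurons (1.05, FDR = 0.0514). In the interneuron lineage the sign was the other way for most factors. Of 16 tested, 0 were called (edgeR quasi-likelihood test; 8 had an unadjusted p under 0.05), 13 had a negative log2 fold change and the median was -0.35. The lowest p values were those of Npas1 (0.83, FDR = 0.0589) and Maf (-0.59, FDR = 0.0724). Sox5 (0.44) and Neurod2 (0.57) were the only members below the median of the excitatory list.

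Genes known to respond to TBR1 in developing cortex were read beside it. Of 6 tested, Reln, the secreted glycoprotein of Cajal-Retzius cells and some interneurons, rose (1.15, FDR = 0.0383), as did Cdh8, a cadherin (0.73, FDR = 0.0425 in edgeR's quasi-likelihood test). Reln averaged 6.78 ± 1.94 CPM in shNT (SD, n = 5) and 15.2 ± 3.06 CPM in shRNA (SD, n = 4). The rest, Grin2b, Auts2, Cntnap2 and the partner Cask, had log2 fold changes of -0.02 to 0.54 and were not called. Of 16 BAF subunits, the complex that BCL11A and BCL11B join, 0 were called (edgeR quasi-likelihood test; 5 had an unadjusted p under 0.05) and the median was 0.20. The lowest p values were those of its ATPases Smarca4 (0.78, FDR = 0.0576) and Smarca2 (0.75, FDR = 0.0609).

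**Figure D3:**
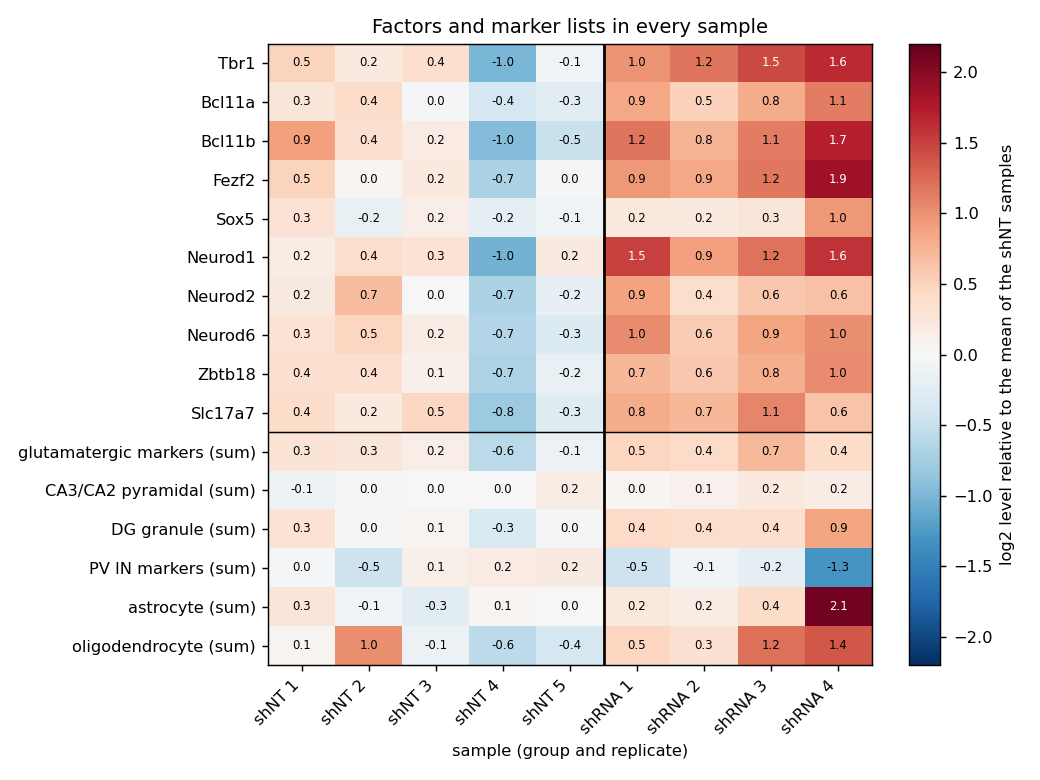
Level of the 9 factors, Slc17a7 and the summed markers of 6 cell types in every sample, as the log2 difference from the shNT mean (colour and number). The factors are positive in every shRNA sample, while the astrocyte sum reaches 2.1 in shRNA replicate 4 alone and the PV IN sum is at -1.3 there.

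Some markers of glutamatergic neurons were higher in shRNA and others were not. Slc17a7 was at 258 ± 83.3 CPM in shNT (SD, n = 5) and 433 ± 59.1 CPM in shRNA (SD, n = 4), with no overlap and a log2 fold change of 0.75 (FDR = 0.0712 in edgeR's quasi-likelihood test), close to Zbtb18, Bcl11a and Neurod6. Camk2a, the kinase of excitatory synapses, differed by 0.76 (FDR = 0.0909). Of 10 glutamatergic effector genes 1 was called, Ptk2b (1.12, FDR = 0.0408), with Nptx1 next (1.04, FDR = 0.0551); 8 were positive, the median was 0.78 and the summed level 1423 to 2660 CPM in shNT and 2862 to 3519 CPM in shRNA. Hpca (0.04), Slc30a3 (-0.02) and Nrgn (-0.14), named after their values were seen, were close to equal between groups. Of 15 markers of CA3/CA2 pyramidal neurons 4 were called higher, Kcnq5 (1.47), Grik4 (1.17), Cpne4 (0.95) and Amigo2 (0.68), beside 2.59% of all genes. In that list 11 were positive and 4 negative (-0.13 to -0.38), with a median of 0.50. For 6 of them every shRNA sample was above every shNT sample, beside 8.97% of all genes. The sums overlapped (622 to 748 and 689 to 778 CPM), and their largest terms were Nnat (244 CPM in shNT, -0.23) and Elavl2 (207 CPM in shNT, -0.13). Of 12 DG granule cell markers Prox1 was called, with Lct next (1.59, FDR = 0.0575). In that list 10 were positive and 2 negative, the median was 1.02 and the sums were 196 to 309 and 318 to 453 CPM. No marker of these lists was at 0 in either group. Their part in the values of the 9 factors was not tested.

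The 15 PV IN markers all had a negative log2 fold change and 0 were called (edgeR quasi-likelihood test; 3 had an unadjusted p under 0.05), with a median of -0.37, sums of 10744 to 16880 CPM in shNT and 5967 to 13962 CPM in shRNA, and the lowest p for Cox6a2 (-0.91, FDR = 0.0590) and Pvalb (-0.92, FDR = 0.0654). Of 11 markers of other interneurons Reln and Cnr1 (1.19, FDR = 0.0374 in edgeR's quasi-likelihood test) were called higher. In that list 6 were positive and 5 negative, with a median of 0.55. The sums overlapped, at 632 to 991 CPM in shNT and 450 to 807 CPM in shRNA. Npy (-0.50), Cck (-0.47) and Sst (-0.45) were among the negative ones and were not called. All 12 astrocyte markers were positive with 0 called (10 at an unadjusted p under 0.05, median 1.39, sums 1135 to 1623 and 1513 to 5914 CPM), led by Slc4a4 (1.47, FDR = 0.0583) and Aldh1l1 (1.23, FDR = 0.0585 in edgeR's quasi-likelihood test). Of 10 oligodendrocyte markers Cnp was called (0.81) and the median was 0.74 (799 to 2432 and 1502 to 3086 CPM). The summed levels overlapped between groups for microglial markers (0 of 10 called in edgeR's quasi-likelihood test, 3 at an unadjusted p under 0.05, median 0.21, 80.1 to 152 and 122 to 139 CPM, led by P2ry12 at 0.74 and Csf1r at 0.66, without overlap for either gene) and endothelial markers (0 of 10 called, 0 at an unadjusted p under 0.05, median 0.46, 104 to 322 and 65.7 to 848 CPM, led by Kdr at 1.39 and Slco1a4 at 0.87).

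The log2 fold change rose with exon length, from a negative median for the shortest exons to a positive one for the longest. Over 5 equal groups of genes from the shortest to the longest exons the median log2 fold change was -0.31, -0.05, 0.10, 0.23 and 0.44, and the share called higher was 0.166%, 0.998%, 1.5%, 2.69% and 7.64%. Bcl11a (13.18 kb of exons), Sox5 (14.38 kb) and Bcl11b (8.111 kb) fall in the group of longest exons, Tbr1 (5.486 kb) and Zbtb18 (5.102 kb) in the one before it, and Fezf2 (2.304 kb), Neurod1 (2.729 kb) and Neurod6 (2.154 kb) in the one with a median of -0.05. With exon length as an offset fitted in each sample, Bcl11a was at 0.17 (FDR = 0.382), Sox5 at -0.27 (FDR = 0.282) and Tbr1 at 0.91 (FDR = 0.0829 in edgeR's quasi-likelihood test). Bcl11b was at 0.65 and Zbtb18 at 0.45 in that fit, also lower than without the offset. Fezf2 at 1.15, Neurod1 at 1.13 and Neurod6 at 0.82 moved least, and 8 of 9 members stayed positive. With either length offset 0 of the 15047 genes with a length were called, beside 1795 (exon) and 1935 (gene) that were higher at an unadjusted p under 0.05.

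**Figure D4:**
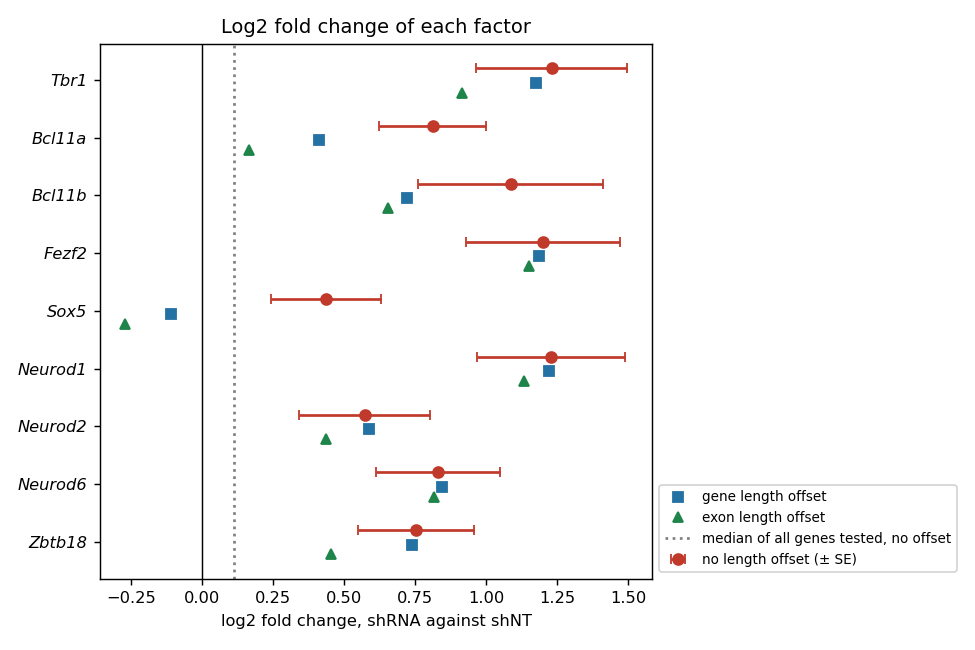
Log2 fold change (x axis, shRNA against shNT) of each factor without a length offset (circles, bars are SE) and with an offset for gene length (squares) or exon length (triangles). Bcl11a goes from 0.81 to 0.41 and 0.17 and Sox5 from 0.44 to below 0, while Fezf2, Neurod1 and Neurod6 keep nearly the same value.

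The share of reads outside exons also differed between groups, at 9.76% to 18.6% in shNT and 12.4% to 27.2% in shRNA. As a covariate it left Tbr1 at 1.12 (FDR = 0.0920) and Bcl11a at 0.59 (FDR = 0.0942 in edgeR's quasi-likelihood test), with 9 of 9 members positive and 0 genes called (2915 higher at an unadjusted p under 0.05). The sample names form a set of 6 (3 shNT, 3 shRNA) and a set of 3 (2 shNT, 1 shRNA), and the labels do not say what the sets are. Within the set of 6, Tbr1 was at 5.23 to 6.32 CPM in shNT and 8.93 to 12.4 CPM in shRNA and Bcl11a at 28.9 to 39.0 and 41.7 to 53.3 CPM, so neither overlapped. The log2 fold changes there were 0.82 for Tbr1 (FDR = 0.244) and 0.47 for Bcl11a (FDR = 0.449 in edgeR's quasi-likelihood test), 9 of 9 members were positive at 0.09 (Sox5) to 0.89 (Neurod1), with Bcl11b at 0.48 and Fezf2 at 0.69, and 0 genes were called (1010 higher at an unadjusted p under 0.05). The set of 3 held 1 shRNA sample and gives no test of its own.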

How the data were processed

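Ribosome-associated RNA of CA3/CA2 PV INs was sequenced from 5 shNT and 4 shRNA samples (50-base reads, SMARTer v4 libraries). The authors mapped the reads to mm9 transcripts by STAR, obtained gene counts by unstranded HTSeq 0.6.0 and deposited those counts as they were. The annotation used is not given in the sources used here. Positions and names came from GENCODE vM1 of the same build, which named 37205 of 37620 identifiers.

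The 15069 genes that reached 1 CPM in 1 or more samples were kept and 22551 removed. After TMM normalization the counts went into the quasi-likelihood test of edgeR 4.0.16 (version 4 form, condition only, R 4.3.3), with Benjamini-Hochberg adjustment over all genes tested. A gene was called at an FDR under 0.05 and at least 1.5-fold. log2 levels use a prior count of 2, and the biological coefficient of variation was 0.303. Single values were compared by exact two-sided permutation over the samples, and inverting it gave the 95% intervals. Rows for reads without a gene stayed out of library sizes; the share outside exons is the reads with no feature over all uniquely aligned reads. Depth set counting error only, and p-values measure the spread between pools of mice.

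The members and lists were chosen with earlier results of these data known. Named from each list were the called genes (at most 4 by size of change) or, with fewer than 2, the 2 with the lowest p; 5 list symbols that match 2 identifiers were left out, and a gene that this rule names is not reported here. Alternatives covered other tests (edgeR likelihood ratio and exact tests, DESeq2 1.42.0, limma 3.58.1 voom), scalings, filters, length offsets, covariates, sets of names and each sample left out. The edgeR tests, DESeq2, voom and a fit with a length offset were tested on simulated counts with known changes. Lengths in that simulation were random and no trend with length was put in. It therefore cannot show whether the offset removes such a trend or also removes true change. The other steps were not tested on simulated counts. No protein sequences were used here.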

Additional observations from a re-analysis of the deposited data

Results flagged for a closer look

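Of 38 sets of values (each member and marker list in each group, and the share of reads outside exons) 7 held a sample far from the others of its group by Dixon's test, where chance alone gives about 1.9 (1 in 20). Among the factors, Neurod1 stood at 2.77 CPM in shNT replicate 4 while the other shNT samples lay between 6.40 and 7.48 CPM. Sox5 stood at 33.4 CPM in shRNA replicate 4 while the other shRNA samples lay between 20.03 and 20.6 CPM. That library also held the high summed markers of DG granule cells (452.6 CPM, others 318 to 329), astrocytes (5914 CPM, others 1513 to 1797) and endothelial cells (848 CPM, others 65.7 to 141). In shNT replicate 2 the summed oligodendrocyte markers (2432 CPM, others 799 to 1234) and the share of reads outside exons (18.6%, others 9.76% to 11.3%) were high.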

How the results depend on the processing

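The direction of all 9 factors held in every fit run except that of Sox5, which reversed to -0.11 with the gene length offset and -0.27 with the exon length offset. Tbr1 lost its call with scaling by library size only (1.29), upper quartile scaling (1.24), the gene length offset (1.17), the exon length offset (0.91), a covariate for reads outside exons (1.12), the set of 6 sample names alone (0.82) and without the 3 libraries over 15% outside exons (1.23). Bcl11a lost its call in the version 3 form of the quasi-likelihood test (0.81), with library size only (0.87), with upper quartile scaling (0.81), with size factors of DESeq2 (0.77) and no filter on low counts (0.77), with the gene length (0.41) and exon length (0.17) offsets, the covariate (0.59), the set of 6 alone (0.47) and without those 3 libraries (0.72). The fit with the replicate numbers as a block gave 1.22 for Tbr1 (FDR = 0.269) and 0.76 for Bcl11a (FDR = 0.318), with 0 members and 28 genes called higher. Those numbers do not pair the samples: same-numbered samples correlated at -0.267, -0.641, 0.486 and -0.181, and 1 of 4 shRNA libraries correlated best with its own number. Leaving out 1 sample at a time gave 1.06 to 1.34 for Tbr1, 0.65 to 0.92 for Bcl11a, 0 to 7 members called and 0 to 1122 genes called higher; shNT replicate 3, 4 or 5 or shRNA replicate 1 or 3 left out gave 0 genes. The 4 members called became 2 in the version 3 form (1.74% of all genes), 7 with the likelihood ratio test (1688 genes, 11.2%), 7 with the exact test (1659 genes, 11%), 7 with DESeq2 (1519 genes, 10.1%), 8 with limma voom (2301 genes, 15.3%) and 0 (with 0 genes called higher) under library size only, upper quartile, both length offsets, the covariate, the set of 6 alone and without the 3 libraries. Without shNT replicate 2 and shRNA replicate 4, chosen after seeing the data like the removal of 3 libraries, 712 genes (4.99%) and 4 members were called. The cause of these changes was not tested. The median log2 fold change of all genes moved from 0.11 to -0.07 with the gene length offset and -0.09 with the exon length offset. Counting error limits Tbr1 most, at 45 to 313 reads per sample.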

Other observations

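Cnr1, the cannabinoid receptor of CCK basket cells, had a mean of 69.6 ± 12.5 CPM in the shRNA samples (SD, n = 4). Its shNT mean was 30.4 ± 9.67 CPM (SD, n = 5). Every shRNA sample was above every shNT sample, as in 8.97% of all genes. Cck itself had the opposite sign, with a log2 fold change of -0.47, and was not called (FDR = 0.155 in edgeR's quasi-likelihood test). Arid1b, a BAF subunit chosen here after its values were seen, was at 47.2 ± 19.4 CPM (SD, n = 5) in shNT and 90.2 ± 23.6 CPM (SD, n = 4) in shRNA. The log2 difference was 0.93 and not called (FDR = 0.0647 in edgeR's quasi-likelihood test). Arid1b was 1 of 16 subunits without overlap between groups, beside 8.97% of all genes. That count does not set the subunits apart from other genes.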
